A study of Homo sapiens with 4 samples.

Results

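The clustered protocadherins are cell-surface adhesion proteins encoded side by side on chromosome 5 in an alpha (PCDHA), a beta (PCDHB) and a gamma (PCDHG) cluster. All rows of the count table on chromosome 5 whose Ensembl identifier maps to a protein-coding symbol beginning with PCDHA, PCDHB or PCDHG were taken, which gave 53 of 61541 genes, 15 in PCDHA, 16 in PCDHB and 22 in PCDHG. RNA sequencing compared cells of the established human breast cancer line MDA-MB-231 that were serially passaged in CdSO4 up to 10 µM until they were resistant, with the same line grown without cadmium. There were 2 libraries per group (n = 2), named control 2 and control 3, as the count table numbers them, and cadmium 1 and cadmium 2. The cadmium-exposed cells are a selected population, and no source used here says that the libraries of a group came from separate selections, so p-values measure only the spread between these libraries.

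Each protocadherin of the alpha and gamma clusters has its own promoter and its own large variable exon, which encodes the extracellular cadherin repeats, the membrane span and the start of the cytoplasmic tail. That exon is spliced to a few constant exons at the end of the cluster, which all members of the cluster share, while the beta genes have no constant exons. In neurons, for which the family is best known, promoters are chosen so that cells carry different combinations, and the proteins bind like copies of themselves on neighbouring cells. CTCF and cohesin, which fold chromatin into loops, bring chosen promoters to distal enhancers, and DNA methylation holds other promoters silent. The last members of the alpha and gamma clusters, called C-type, are used more uniformly.

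In these cells the alpha cluster was near silent in control libraries and higher in both cadmium libraries, whereas the beta and gamma clusters were expressed in every library with smaller differences between groups. The 15 PCDHA members together held 6 and 26 reads in control 2 and control 3, and 241 and 234 reads in cadmium 1 and cadmium 2. PCDHAC1, PCDHA11 and PCDHA12 were called higher in cadmium-resistant cells at a DESeq2 adjusted p below 0.1. No PCDHB or PCDHG member was called in either direction. Over all 19834 tested genes 0.600% were called higher and 0.534% lower. Without the filter on low counts PCDHA11 and PCDHA12 were not called, and edgeR and limma-voom called no gene. PCDHB14, a beta gene, held 332 and 356 reads in the control libraries and 678 and 668 in the cadmium libraries, and missed the threshold.

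The array ran over 727 kb of hg38, from chr5:140786136 to chr5:141512977, and all 53 members lay on the plus strand. Variable exons stand in order, so a member further along the cluster has its promoter nearer the constant exons. In the count table the 15 PCDHA rows shared 3 exon blocks of 59, 89 and 2721 bases, 2869 bases in all, ending at position 141012347. The 22 PCDHG rows shared 3 blocks of 59, 89 and 2029 bases, 2177 bases in all, ending at position 141512975. No block was common to the PCDHB rows.

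Reads that overlap several genes were dropped by the authors' counting, so reads within the constant exons count for no member. Exclusive exon, meaning exon bases that no other gene row covers on either strand, made up 52.9% of PCDHA exon length, 91.8% of PCDHB exon length and 58.01% of PCDHG exon length. PCDHA1 kept only 7 exclusive bases, because a long non-coding RNA row covers 2719 bases of its exons, so its count of 0 carries no information. Among the other members exclusive exon ran from 2011 bases in PCDHA12 to 10574 bases in PCDHA4. Levels are compared between genes below only as normalized counts per kb of exclusive exon, where a normalized count is the read count divided by the DESeq2 size factor of the library.

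**Figure D1:**
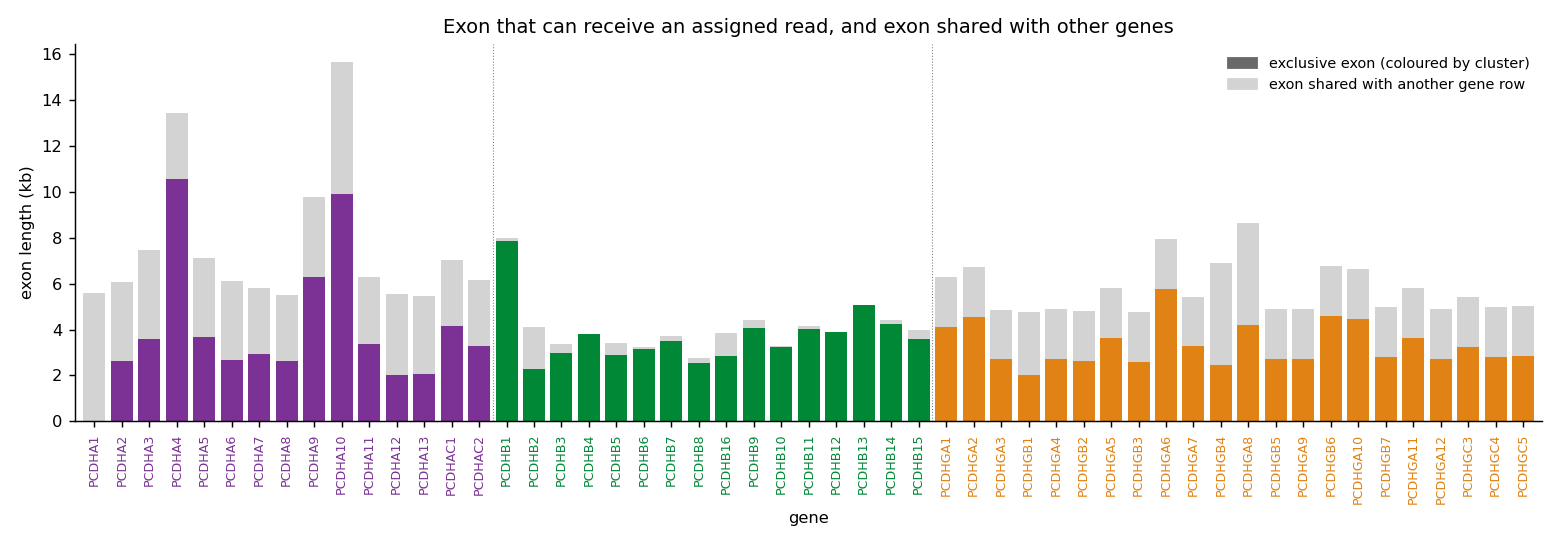
Exon length in kb of each of the 53 members in order along the chromosome, split into exclusive exon (coloured by cluster) and exon shared with another gene row (grey). The grey part is large in PCDHA and PCDHG, small in PCDHB, and takes nearly all of PCDHA1.

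Near-identical variable exons can lose reads in another way, since reads that map to several places were also dropped. The share of 50-base windows of exclusive exon with an exact copy elsewhere in the array was 45.3% in PCDHB8, 33.4% in PCDHB10, 28.05% in PCDHA8, 27.3% in PCDHB2, 25.9% in PCDHA7, 25.2% in PCDHA6, 23.6% in PCDHB13 and 22.8% in PCDHB9. The counts of these genes are therefore uncertain. The share was 0 in PCDHAC1, 4.74% in PCDHA12 and 6.70% in PCDHA11.

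Promoter sequence was available from RefSeq (GRCh38.p14) for 47 of the 53 members, as 250 bases before to 50 bases after the start site, and every window matched hg38. A conserved sequence element with the core letters CGCT is a known feature of most clustered protocadherin promoters. The 8-letter word found in most PCDHA promoters was ATGTCGCT, present on the gene's strand in 9 of 13 members with a window and in 0.154% of 35116 promoters of all genes (0.234% on either strand). It lay 42 to 85 bases before the start. The sequences below show that the word stands both in the called PCDHA12 and in PCDHA2 and PCDHA10, which had 0 to 4 reads in every library, while the C-type genes PCDHAC1 and PCDHAC2 hold only the shorter core. Each is given 5′ to 3′ on the plus strand, with capitals marking the shared word or, where that is absent, the core.
PCDHA2 (chr5:140794757-140794820): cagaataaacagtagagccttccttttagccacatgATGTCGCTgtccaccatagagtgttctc
PCDHA10 (chr5:140855817-140855880): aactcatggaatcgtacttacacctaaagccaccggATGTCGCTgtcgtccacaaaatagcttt
PCDHA12 (chr5:140875220-140875283): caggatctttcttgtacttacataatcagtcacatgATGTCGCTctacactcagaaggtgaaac
PCDHAC1 (chr5:140926249-140926312): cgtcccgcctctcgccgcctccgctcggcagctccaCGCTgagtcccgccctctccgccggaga
PCDHAC2 (chr5:140966399-140966462): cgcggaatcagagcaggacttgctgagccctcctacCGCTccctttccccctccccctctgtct

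The word was absent from the windows of PCDHA9, PCDHA11, PCDHAC1 and PCDHAC2. The RefSeq start of PCDHA11 lies 774 bases past the first exon base in the count table, and that of PCDHA9 610 bases past it, so these windows may not hold the promoter in use. In PCDHAC1 the marked core begins 14 bases before the start, the window runs past the start, and its promoter held 3 copies of the core. A match is a run of letters and was not tested as a binding site.

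The beta and gamma promoters carried other words around the same core. GGTGGCGC stood in 13 of 14 PCDHB members with a window (all but PCDHB1) and in 1.23% of all promoters on the gene's strand (2.23% on either). GCCGCTGT stood in 11 of 20 PCDHG members and in 0.897% of all promoters (1.63% on either strand). CGCT itself is common, in 54.3% of all promoters on the gene's strand and 70.0% on either, and stood on the gene's strand in 12 of 13 PCDHA, 14 of 14 PCDHB and 20 of 20 PCDHG members. PCDHB14, with the lowest p-value of its cluster, PCDHB13, its neighbour with a much smaller difference, and the well expressed PCDHGB1 and PCDHGC3 are shown in the same way.
PCDHB13 (chr5:141213840-141213903): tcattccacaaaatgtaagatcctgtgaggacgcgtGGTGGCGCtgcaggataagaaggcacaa
PCDHB14 (chr5:141223238-141223301): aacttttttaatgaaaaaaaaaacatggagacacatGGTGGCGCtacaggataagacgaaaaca
PCDHGB1 (chr5:141350003-141350066): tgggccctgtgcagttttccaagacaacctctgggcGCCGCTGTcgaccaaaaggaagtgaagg
PCDHGC3 (chr5:141475858-141475921): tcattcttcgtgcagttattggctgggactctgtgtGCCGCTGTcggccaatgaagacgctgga

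The libraries held 51934729 to 61916007 reads assigned to genes. Mates of a pair were counted separately, and 70.6% to 71.5% of the counts from 1 to 20 were even, so that a count of 2 is often 1 fragment. A count of 0 allows up to 3 reads, or 6 if both mates are counted, and these limits cover counting error only. Control libraries differed from each other more than cadmium libraries did: over the 12924 genes that averaged 100 or more normalized counts, the robust SD of the log2 ratio was 0.56 between control 2 and control 3 and 0.16 between cadmium 1 and cadmium 2. Results are therefore given with and without single control libraries. Markers expected in the line were present, with VIM (vimentin) at 39062 to 51044 and EGFR at 19225 to 24701 normalized counts. CD44 was at 20725 to 25973 and KRT18 at 21666 to 25529. Of the genes listed as absent or low in this line, ESR1 was at 2.13 to 18.9 and PGR at 6.38 to 29.6 normalized counts. ERBB2 was at 4584 to 6773, and CDH1 (E-cadherin) was at 615 in control 3 and 107 to 169 in the other libraries.

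The alternate members of the alpha cluster come first. PCDHA1 to PCDHA13 are the members from which neurons choose. Of these, PCDHA1, PCDHA2 and PCDHA9 had no read in any library. Counts of PCDHA3, PCDHA5, PCDHA6, PCDHA7, PCDHA8 and PCDHA10 ran from 0 to 9 reads, and the filter on low counts left them without an adjusted p. Against a limit of 3 reads per control library, the cadmium mean was at least 1.65-fold higher in PCDHA5 and 1.81-fold in PCDHA7. Neither mean exceeded a limit of 6. PCDHA7 held 9 reads in cadmium 1 and 2 in cadmium 2, and cadmium 2 alone lies below the limit of 3. Counting error of the cadmium reads is not in these bounds. The remaining PCDHA4, PCDHA11, PCDHA12 and PCDHA13 carried most reads of the alternate members.

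PCDHA11 (ENSG00000249158, chr5:140868183-141012347) held 0 reads in both controls, 12 in cadmium 1 and 32 in cadmium 2. PCDHA12 (ENSG00000251664, chr5:140875302-141012347) held 0 and 0 reads in the controls and 22 and 17 in the cadmium libraries. Neither gene was seen in a control library, and both were seen in each cadmium library, with PCDHA11 varying more between the cadmium libraries than PCDHA12. Against the limit of 3 reads per control library, the cadmium mean was at least 7.22-fold higher in PCDHA11 and 6.42-fold in PCDHA12. Against a limit of 6 reads the means were at least 3.61-fold and 3.21-fold higher. These bounds take the mean of both cadmium libraries and leave out its spread and counting error. The DESeq2 adjusted p-values were 0.062 and 0.076. Both calls rest on few reads, and without independent filtering, which removes low genes before adjustment, the DESeq2 adjusted p-values were 0.105 and 0.129. Adjusted p-values were 0.620 for each in edgeR, and 0.669 and 0.656 in limma-voom, and neither method called any gene. Without control 2, and without either cadmium library, the filter left both genes with no adjusted p.

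PCDHA13 (ENSG00000239389) held 0 and 7 reads in the control libraries and 48 and 45 in the cadmium libraries. It was the highest PCDHA member per length, at 22.5 normalized counts per kb in cadmium-resistant cells, and 1.81 in controls. The groups did not overlap, and the DESeq2 log2 fold change was 3.66 ± 1.20 (SE), with an adjusted p of 0.155. PCDHA4 held 0, 8, 21 and 30 reads in control 2, control 3, cadmium 1 and cadmium 2. Its groups did not overlap either, with a log2 fold change of 2.59 ± 1.46 (SE) and a DESeq2 adjusted p of 0.800. In both genes the control reads came from control 3 alone.

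The C-type members of the cluster lie nearest its constant exons. PCDHAC1 (ENSG00000248383, chr5:140926299-141012347) held 0 reads in control 2 and 1 read in control 3, against 65 in cadmium 1 and 64 in cadmium 2. The cadmium libraries were close to each other and far above both controls. The ratio of normalized reads was 128, with an exact 95% interval of 22.5 to 5082. The interval covers counting error only and takes every read as independent, so with mates counted separately it is too narrow. The DESeq2 log2 fold change was 6.99 ± 1.60 (SE) with an adjusted p of 0.0034, the lowest among the 53 members. Without control 2 the DESeq2 log2 fold change was 5.91, and without control 3 no control read was left. With all libraries the adjusted p was 0.536 in edgeR and 0.656 in limma-voom, and neither method called any gene.

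PCDHAC2 (ENSG00000243232), the last variable exon of the cluster, was the PCDHA member with reads in every library, at 6 and 8 reads in the controls and 47 and 38 in the cadmium libraries. Its groups did not overlap, with a log2 fold change of 2.58 ± 0.87 (SE) and a DESeq2 adjusted p of 0.188. Without control 3, where 13.5% of tested genes were called higher, its DESeq2 adjusted p was 0.037.

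Set out along the cluster, the reads lay near its end. The first 10 variable exons, PCDHA1 to PCDHA10, held 0, 10, 47 and 38 reads in control 2, control 3, cadmium 1 and cadmium 2, which is 0 to 1.04 normalized counts per kb of their exclusive exon. The last 5, PCDHA11 to PCDHAC2, held 6, 16, 194 and 196 reads, or 0.382, 1.15, 13.0 and 13.0 normalized counts per kb. The 5 members nearest the constant exons therefore had the higher level per length in every library, and the division after PCDHA10 was chosen after values were seen. In control 2 this rests on 6 reads of PCDHAC2. The level of the first 10 is also lowered by long exclusive exon in PCDHA4, PCDHA9 and PCDHA10 (10574, 6308 and 9908 bases). Gene order also sets which members hold long non-coding rows and repeats, and their part in this order was not tested.

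**Figure D2:**
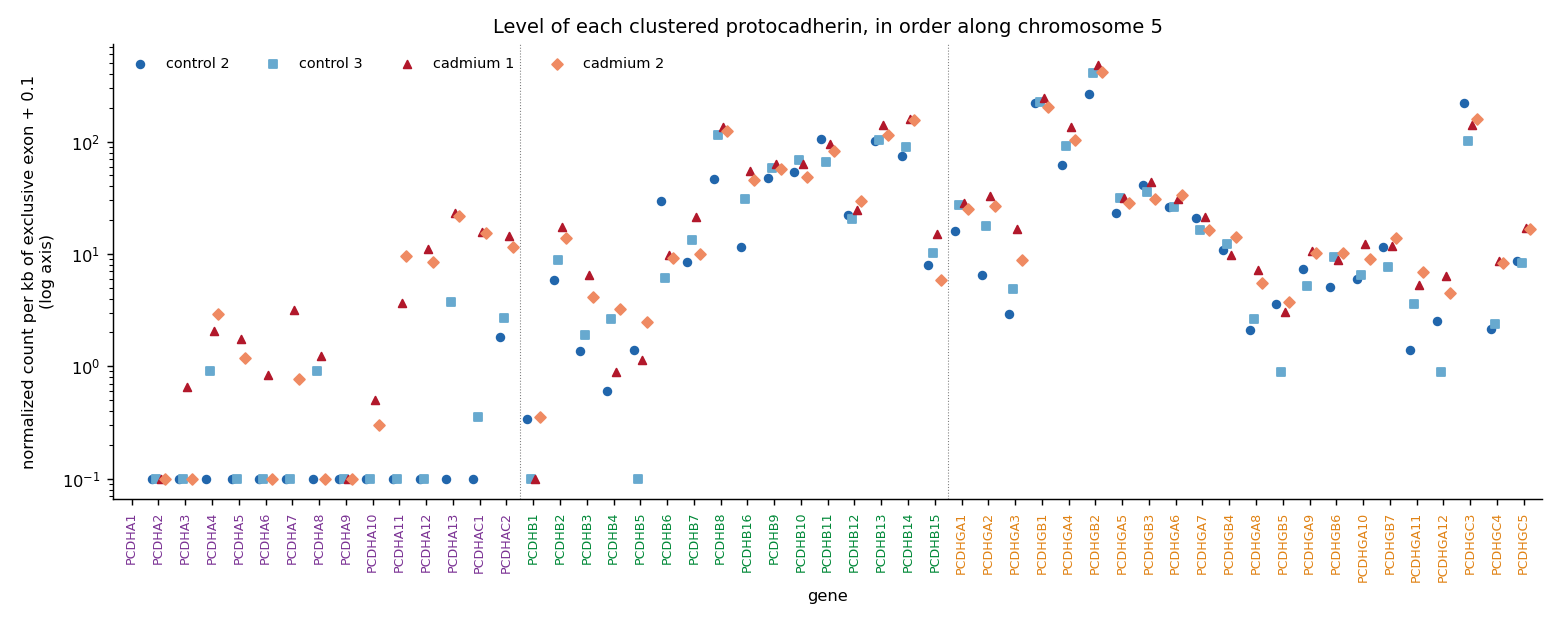
Normalized count per kb of exclusive exon, with 0.1 added and on a log axis, for each member in order along the chromosome and each of the 4 libraries (PCDHA1, with 7 exclusive bases, is not drawn). PCDHA members sit at or near the floor in controls and rise toward the end of the cluster in cadmium libraries, and PCDHB and PCDHG members span a wide range that the 4 libraries share.

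As a whole, the PCDHA cluster had a summed normalized count of 5.68 and 27.6 in control 2 and control 3, and of 240 and 231.03 in cadmium 1 and cadmium 2. The control mean was 16.7 ± 15.5 and the cadmium mean 235 ± 6.24 (SD, n = 2), and their ratio was 14.1. Control 3 was 4.87-fold above control 2, so the ratio was 8.52 against control 3 alone and 41.5 against control 2 alone. Control 2 had a read in 1 member and control 3 in 5, against 12 members in cadmium 1 and 9 in cadmium 2. With 2 libraries against 2, an exact permutation test (two-sided) cannot give a p below 0.333, and none is given for the sums. RNA from a few cells with an active cluster and a low level in all cells cannot be told apart in these bulk libraries.

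Of the 15 PCDHA members 3 were called higher and 0 lower at a DESeq2 adjusted p below 0.1, where 0.600% of 19834 tested genes were called higher and 0.534% lower. Only 6 PCDHA members passed the filter on low counts, a mean normalized count of 7.65 over all libraries. Their control means were 0 to 7.09, so all 6 passed only through their cadmium libraries. Entry to the test thus depended on the group where they were higher, and nothing is read from 3 called of 6 tested. In edgeR and limma-voom 0 PCDHA members were called, as were 0 of all 19241 genes tested there. At an unadjusted p below 0.05 in DESeq2, 5 PCDHA members were higher and 0 lower, against 3.05% and 3.88% of tested genes. These 5 are among the 6 that passed the filter only through their cadmium libraries, so nothing is read from that count either. On leaving out a library, the DESeq2 log2 fold change of PCDHAC2 ran from 2.31 to 2.88. Without control 2 it was 5.91 in PCDHAC1, 2.63 in PCDHA13 and 1.57 in PCDHA4, genes that have no control read without control 3. Without either cadmium library the filter left PCDHAC1, PCDHA11 and PCDHA12 without an adjusted p. Both cadmium libraries lay above both controls in 9 of 15, against 17.8% of 33455 genes with a read, and 24.5% of those whose mean normalized count was 5 to 50. The count was also 9 against control 3 alone (31.7% of genes) and against control 2 alone (35.5% of genes). Of the 12 PCDHA members with a read, 7 had none in a control library, which fixes their direction, so nothing is read from the signs. The median log2 fold change was 2.59 over 9 members when those with no control read enter at their lower bound where there is one. PCDHA3, PCDHA6 and PCDHA10, with cadmium means of 1.00, 1.00 and 2.98, stayed below the limit and have no bound. Entry of members without control reads thus depended on their cadmium level, so nothing is read from this median.

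**Figure D3:**
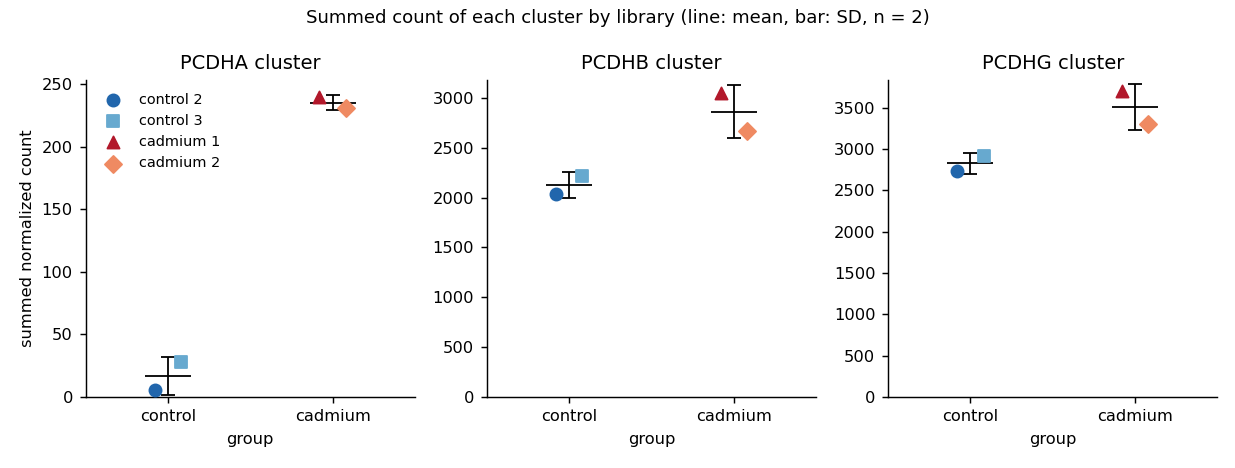
Summed normalized count of each cluster in each library, with the group mean (line) and SD (bar, n = 2), on axes that start at 0 and differ in scale. PCDHA goes from 5.68 and 27.6 in controls to 240 and 231.03 in cadmium libraries, while PCDHB and PCDHG change by less than their control level.

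The beta genes have a single coding exon each and no constant cytoplasmic part. Summed over 16 members, normalized counts were 2035 and 2216 in the controls and 3048 and 2673 in the cadmium libraries. The groups did not overlap, and the means, 2126 ± 128 and 2861 ± 266 (SD, n = 2), had a ratio of 1.35. Thus the summed difference was present but far smaller in ratio than in PCDHA, a contrast that was not tested.

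PCDHB14 (ENSG00000120327, chr5:141223343-141227759) had the lowest p-value of the cluster. Normalized counts were 314 and 379 in the controls and 675 and 660 in the cadmium libraries, so that both cadmium libraries lay well above both controls. The log2 fold change was 0.95 ± 0.30 (SE), with a DESeq2 adjusted p of 0.135. The adjusted p fell below the threshold with upper-quartile factors (0.081), when only genes with at least 10 counts in 2 libraries entered (0.074), without control 2 (0.018, where 7.45% of tested genes were called higher) and without control 3 (0.00024, where 13.5% were). It was 0.620 in edgeR, 0.669 in limma-voom, 0.227 in DESeq2 without independent filtering, 0.205 with halved counts, and 1.00 without cadmium 1 or cadmium 2. PCDHB14 was also the highest beta gene per length in cadmium-resistant cells, at 157 normalized counts per kb, against 81.5 in controls, where PCDHB13 stood higher at 102.

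PCDHB16 held 34, 82, 157 and 130 reads in control 2, control 3, cadmium 1 and cadmium 2. PCDHB8 held 124, 273, 340 and 316 reads in the same order. In both genes control 2 was far below control 3, and the difference to the cadmium libraries depends on which control is used. Log2 fold changes were 1.26 ± 0.60 (SE) for PCDHB16 and 0.68 ± 0.50 (SE) for PCDHB8, with a DESeq2 adjusted p of 0.644 for PCDHB16, and both were called higher when control 3 was left out, as were 13.5% of tested genes. PCDHB6 went the other way, with 100 and 18 reads in the controls and 31 and 29 in the cadmium libraries. Its log2 fold change was -0.94 ± 0.88 (SE, DESeq2 adjusted p of 1.00), and 0.63 without control 2.

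Among the other named beta genes, PCDHB9, PCDHB10, PCDHB11, PCDHB12 and PCDHB13 were expressed at 21.3 to 102 normalized counts per kb in controls and 27.1 to 128 in cadmium-resistant cells. Their log2 fold changes lay between -0.13 and 0.35. PCDHB2, PCDHB7 and PCDHB15 were lower, at 7.27 to 10.8 normalized counts per kb in controls, with log2 fold changes of 1.10, 0.53 and 0.21, the first from a gene with many repeated windows. PCDHB1, PCDHB3, PCDHB4 and PCDHB5 held 0 to 19 reads in a library. PCDHB1, which lies apart from the others at the start of the cluster, held 2 reads in control 2 and in cadmium 2 and 0 in the other libraries.

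None of the 16 PCDHB members was called, 13 of them tested, and 2 were higher and 0 lower at an unadjusted p below 0.05 in DESeq2 (PCDHB14 and PCDHB16), against 3.05% and 3.88% of tested genes. In edgeR and limma-voom 0 were called too, as were 0 of all 19241 genes tested there. Both cadmium libraries lay above both controls in 7 of 16, against 19.6% of genes whose mean normalized count was 50 to 1500 and 24.5% at 5 to 50. They lay below both in 0, against 14.9% of genes with a read. The count was 10 against control 3 alone (31.7% of genes) and 10 against control 2 alone (35.5%). The median log2 fold change was 0.36, and 0.01 over all genes with a read.

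The gamma cluster holds A-type and B-type genes, which are chosen like the alternate alpha genes, and 3 C-type genes. Summed over 22 members, normalized counts were 2735 and 2920 in the controls and 3704 and 3309 in the cadmium libraries. The groups did not overlap, and the means, 2827 ± 131 and 3507 ± 279 (SD, n = 2), had a ratio of 1.24. Each of the 22 members had a read in every library.

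B-type genes had the largest summed count of the 3 subfamilies in every library, 1342, 1727, 1993 and 1720 normalized counts in control 2, control 3, cadmium 1 and cadmium 2. PCDHGB2 (ENSG00000253910, chr5:141359994-141512975) was the highest member of the array per length, at 336 normalized counts per kb in controls and 449 in cadmium-resistant cells. It held 733 and 1016 reads in the controls and 1283 and 1106 in the cadmium libraries, with control 3 and cadmium 2 almost equal after normalization (1080 and 1092). The log2 fold change was 0.42 ± 0.34 (SE), with a DESeq2 adjusted p of 0.984. PCDHGB1 held 476, 431, 502 and 424 reads, and its log2 fold change was 0.02 ± 0.31 (SE). Its groups overlapped, and its level per length was 223 in controls and 225 in cadmium-resistant cells. PCDHGB3, PCDHGB4, PCDHGB6 and PCDHGB7 stood at 7.09 to 38.4 normalized counts per kb in controls, with log2 fold changes of -0.05, 0.06, 0.41 and 0.41.

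Both cadmium libraries lay above both controls in 9 of 12 A-type genes, against 19.6% of genes with a mean of 50 to 1500 and 24.5% at 5 to 50, with summed normalized counts of 640, 837, 1186 and 1002 in control 2, control 3, cadmium 1 and cadmium 2. PCDHGA2 held 31, 75, 148 and 122 reads, and PCDHGA3 held 8, 12, 45 and 24. In PCDHGA2, as in PCDHB16, control 2 was well below control 3. Log2 fold changes were 1.30 ± 0.61 (SE) and 1.76 ± 0.92 (SE), with DESeq2 adjusted p of 0.619 and 0.740. PCDHGA4, the highest A-type gene per length, held 178, 233, 368 and 285 reads and had a log2 fold change of 0.64 ± 0.39 (SE, DESeq2 adjusted p of 0.865). PCDHGA8, PCDHGA9, PCDHGA10 and PCDHGA11 held 5 to 55 reads in a library and had log2 fold changes of 0.74 to 1.46. PCDHGA1, PCDHGA5, PCDHGA6 and PCDHGA7, with 50 to 193 reads, had log2 fold changes of 0.02 to 0.32.

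Of the gamma C-type genes, PCDHGC3, which is widely expressed outside neurons, was the highest, at 161 normalized counts per kb in controls and 149 in cadmium-resistant cells. Its reads numbered 764 in control 2 and 307 in control 3, against 455 and 524 in the cadmium libraries, so the cadmium libraries lay between the controls. PCDHGC4 held 6, 6, 24 and 23 reads and PCDHGC5 held 26, 22, 48 and 48. In both, replicates were close and groups separate, with log2 fold changes of 1.95 ± 1.04 (SE) and 0.99 ± 0.67 (SE) and DESeq2 adjusted p of 0.753 and 0.921. Together with PCDHAC1 and PCDHAC2, 4 of the 5 C-type genes of the array lay above both controls in both cadmium libraries, against 17.8% of genes with a read and 24.5% at a mean of 5 to 50, and 1 of the 5, PCDHAC1, passed the test.

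None of the 22 PCDHG members was called, 21 of them tested, and 1 (PCDHGA2) was higher and 0 lower at an unadjusted p below 0.05 in DESeq2, against 3.05% and 3.88% of tested genes. In edgeR and limma-voom 0 were called too, as were 0 of all 19241 genes tested there. Both cadmium libraries lay above both controls in 13 of 22, against 17.8% of genes with a read. The share was 19.6% at a mean of 50 to 1500 and 24.5% at 5 to 50. They lay above control 3 in 16 (31.7% of genes) and above control 2 in 16 (35.5%). The median log2 fold change was 0.52. Over the whole array the groups separated upward in 29 of 53 members and downward in 0, against 17.8% and 14.9% of genes with a read, and the 53 genes share a locus and are not independent of each other.

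**Figure D4:**
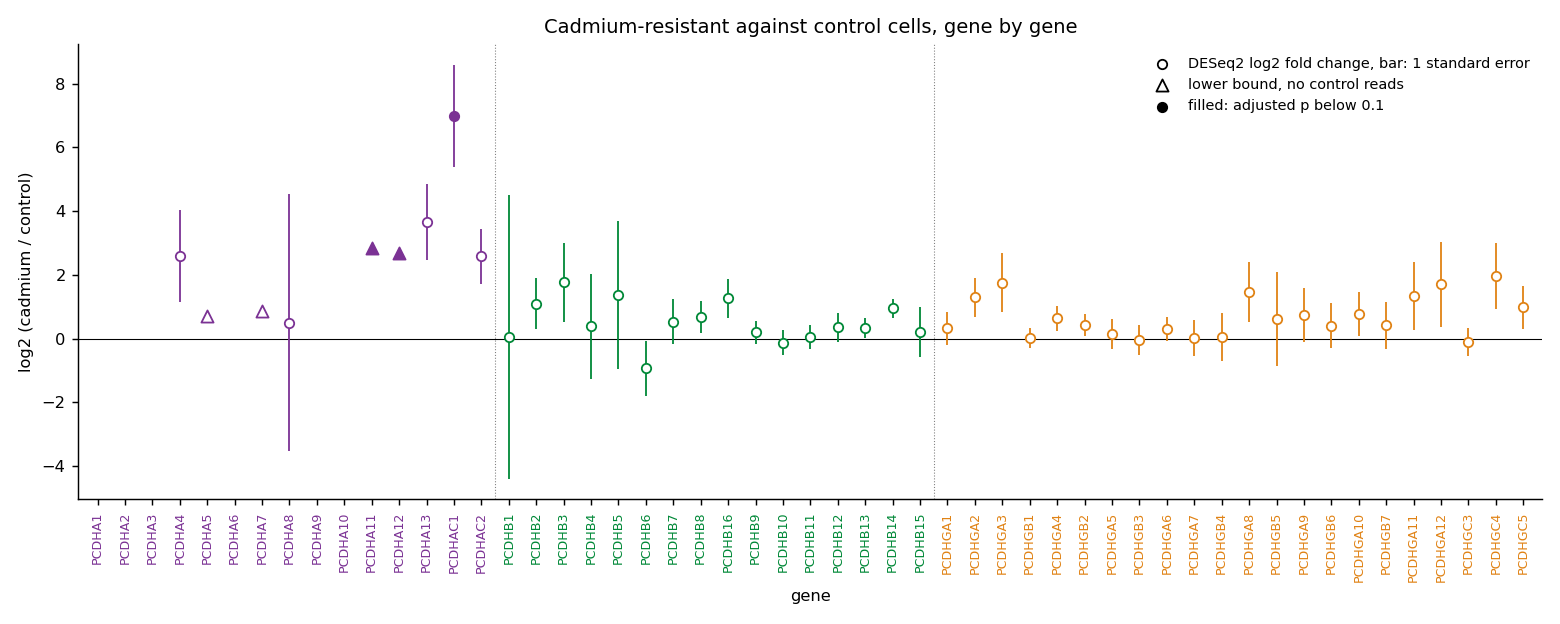
DESeq2 log2 fold change of cadmium over control with 1 standard error for each member in order along the chromosome. Triangles are lower bounds for PCDHA members without a control read, filled symbols have an adjusted p below 0.1 (PCDHAC1, PCDHA11 and PCDHA12), and PCDHA1, PCDHA2, PCDHA3, PCDHA6, PCDHA9 and PCDHA10 are not drawn because they had no read or too few for a bound.

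No other protein-coding gene at the locus was called. There were 31 such genes within 500 kb of the array, with a median log2 fold change of 0.00 over the 27 that averaged 10 or more normalized counts, and 0 of 27 tested were called (2 at an unadjusted p below 0.05 in DESeq2, where 6.92% of tested genes were in either direction). TAF7, a general transcription factor subunit gene that lies between the beta and gamma clusters, held 8909, 10231, 11806 and 10971 normalized counts in control 2, control 3, cadmium 1 and cadmium 2, a log2 fold change of 0.25. CD14, a receptor for bacterial lipopolysaccharide, had the lowest log2 fold change at -0.91. The highest was PCDH1, a protocadherin gene outside the clusters, at 214, 203, 552 and 350 normalized counts, a log2 fold change of 1.11 ± 0.38 (SE) and a DESeq2 adjusted p of 0.197. Of 20 non-coding and pseudogene rows in the array, 10 had no read and 0 of 3 tested were called.

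Of 12 non-clustered protocadherins, which lie outside the clusters and are not joined to constant exons, 0 of 7 tested were called (2 at an unadjusted p below 0.05 in DESeq2, against 6.92% of genes), with a median log2 fold change of 0.83 over those 7. The list includes PCDH1 and PCDH12, which are also among the neighbours within 500 kb of the array. Among those tested PCDH15 had the highest value, 1.49, from 0, 14, 26 and 16 reads, and PCDH18 the lowest, -1.36, from 102, 126, 24 and 67 reads.

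No gene was called in the lists of chromatin architecture and of silencing and DNA methylation factors. Over all 19834 tested genes only 0.600% were called higher and 0.534% lower, so 0 calls in lists this short say little. In both lists 0 genes had an unadjusted p below 0.05 in DESeq2, against 6.92% of tested genes. CTCF held 5384, 4545, 5188 and 4744 normalized counts in control 2, control 3, cadmium 1 and cadmium 2, a log2 fold change of 0.00 ± 0.26 (SE). The 12 genes for CTCF, ZNF143, cohesin and the proteins that load, hold or release it had log2 fold changes from -0.17 (PDS5B) to 0.39 (STAG2, a cohesin subunit), and 0 were called. Of the genes that silence chromatin or set DNA methylation, SMCHD1, which keeps the clustered protocadherins repressed in mice, had a log2 fold change of -0.14 ± 0.27 (SE). DNMT1, the maintenance DNA methyltransferase, was at -0.10 ± 0.26 (SE), and DNMT3B, a de novo methyltransferase, at 0.18 ± 0.35 (SE). The 15 genes of this list, which include TET1, TET2 and TET3, whose products remove DNA methylation, ran from -0.22 (DNMT3A) to 0.28 (EHMT2, a histone methyltransferase), and 0 were called. Transcript levels say nothing of binding or methylation at the array, which were not analysed here.

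Protocadherins are cut by membrane proteases such as ADAM10 and bind kinases such as PTK2B through their tails. Of 16 genes for such enzymes and partners, 0 of 15 tested were called (1 at an unadjusted p below 0.05 in DESeq2, against 6.92% of genes), with a median log2 fold change of -0.16. PTK2B held 995 normalized counts in control 2 and 195 in control 3, and 255 and 163 in the cadmium libraries. Control 2 alone was high, and the log2 fold change of -1.51 ± 0.67 (SE) had a DESeq2 adjusted p of 0.530. In edgeR and limma-voom 0 genes of these lists were called, as was the case for all genes tested, of which 1506 and 1423 had an unadjusted p below 0.05.

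Because the family is best known in neurons, 8 neuronal marker genes were set beside it. NEFL and DCX had no read in any library, and the summed normalized count of the 8 was 1090 and 579 in controls and 461 and 498 in cadmium libraries. MAP2 made the largest part of that sum, at 789, 312, 270 and 278 in control 2, control 3, cadmium 1 and cadmium 2. None of the 8 was called higher, where 0.600% of tested genes were. Log2 fold changes were 0.24 in TUBB3, 0.49 in RBFOX3, 0.65 in SYN1, -0.04 in SYP and -1.01 in MAP2. SNAP25, a synaptic vesicle fusion protein gene, was called lower, as were 0.534% of tested genes. It went from 116 and 125 normalized counts in controls to 14.9 and 19.7 in cadmium libraries. Its log2 fold change was -2.80 (DESeq2 adjusted p of 0.00029), while edgeR and limma-voom called no gene.

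**Figure D5:**
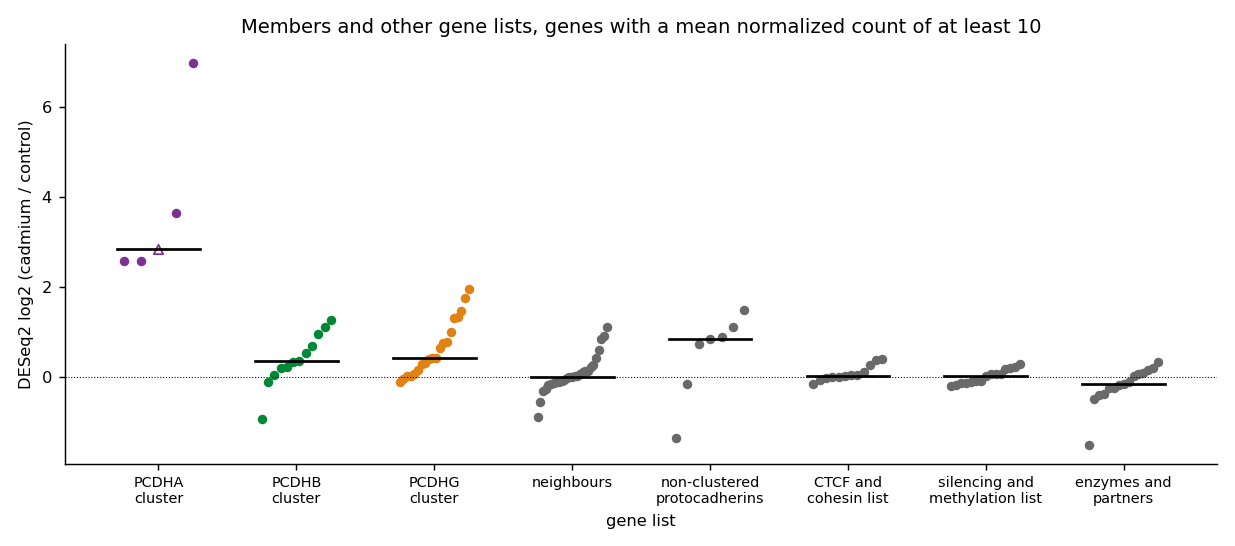
DESeq2 log2 fold change of cadmium over control for members and other genes averaging 10 or more normalized counts, by cluster or list, with a line at each median and open triangles for the lower bound of PCDHA11 (PCDHA12, with a mean of 9.67, is left out). The 5 PCDHA values lie at 2.58 and above. These genes had control means of 0 to 7.09 and reached a mean of 10 only through their cadmium libraries, so nothing is read from their height. Medians of the neighbours, the CTCF and cohesin list and the silencing and methylation list lie between 0.00 and 0.03. Medians were 0.34 in PCDHB, 0.42 in PCDHG, 0.83 in non-clustered protocadherins and -0.16 in enzymes and partners.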

How the data were processed

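RNA-seq was performed on 2 control and 2 cadmium-resistant MDA-MB-231 libraries. As its methods and the table's header state, the authors trimmed read pairs, aligned them to hg38 with HISAT2 and assigned them with featureCounts 2.0.1 to an Ensembl annotation; the deposited values are raw counts per gene. Default settings ignored strand, dropped reads with several positions or genes and counted mates separately. Control columns numbered 2 and 3 do not match the labels' numbers 1 and 2 and were used as a group.

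DESeq2 1.42.0 in R 4.3.3 (Wald test, adjusted p below 0.1 over all genes, independent filtering at a mean normalized count of 7.65) was fitted on all 4 libraries. Size factors were 1.06, 0.940, 1.00 and 1.01. Alternatives used edgeR 4.0.16, limma 3.58.1, other factors, filters and thresholds, halved counts and leaving out each library. The fit was tested on simulated data. Exon overlap and sequences were computed with Python 3.11.15 from the table's exons, hg38 and RefSeq promoters (GRCh38.p14). Symbols matched 61369 of 61541 genes.

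The members and lists were chosen with earlier results of these data known. Members were named where the mean normalized count was at least 10 or the adjusted p below 0.1, which gave 38, and others where a count or range needed them; from each list, called genes, the lowest and highest, and CTCF, SMCHD1, DNMT1 and DNMT3B were named, and TAF7 was chosen after its values were seen. In the enzyme and partner list the highest gene is not reported here.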

Additional observations from a re-analysis of the deposited data

How the results depend on the processing

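The count of PCDHA members called higher, 3, was 1 without independent filtering, 1 at an adjusted p below 0.05 and 1 with halved counts (PCDHAC1 each time). With these settings 0.257%, 0.427% and 0.464% of tested genes were called higher. The count was 0 in edgeR and 0 in limma-voom, as it was over all genes tested there. Leaving out each library gave 0 to 6 (2 without control 2, 6 without control 3, and 0 without cadmium 1 or cadmium 2, where the filter left PCDHAC1, PCDHA11 and PCDHA12 without an adjusted p). In these fits the lone library of a group is assumed to vary like the other group. PCDHB members called higher rose to 1 with upper-quartile factors and 1 with at least 10 counts in 2 libraries (PCDHB14), and 0 to 3 on leaving out a library; PCDHG members gave 0 to 3, and 0 to 1 members of each were called lower. On leaving out a library, called higher and lower were 0 to 2 and 0 to 1 in the CTCF and cohesin list, 0 to 2 and 0 to 4 in silencing and methylation, 0 to 3 and 0 to 9 in partners, 0 to 5 and 0 to 5 in neighbours, and 0 to 5 higher in non-clustered protocadherins, the highest counts coming without control 3 except for silencing genes called higher, where they came without control 2. Over all tested genes 13.5% were called higher and 17.7% lower without control 3, and 7.45% and 7.54% without control 2. The cause was not tested.

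The PCDHA summed log2 ratio, 3.82, ran from 3.09 to 5.37, the PCDHA median of fitted log2 fold changes, which are no estimates where controls had no read, from 3.28 to 4.89 and the PCDHG median from 0.49 to 0.75 on leaving out a library. The PCDHG median level per kb, 12.1, was 6.70 over full exon length, which includes the shared exons. Log2 fold changes that changed sign were small or rested on 1 library: PCDHGB3 was 0.0097 with upper-quartile factors, and on leaving out a library PCDHB6 ran from -1.68 to 0.63, PCDHB7 from -0.12 to 0.97, PCDHB10 from -0.34 to 0.054, PCDHB11 from -0.26 to 0.42, PCDHB15 from -0.64 to 0.73, PCDHGA1 from -0.022 to 0.74, PCDHGB1 from -0.12 to 0.13, PCDHGA5 from -0.069 to 0.37, PCDHGB3 from -0.32 to 0.17, PCDHGA7 from -0.19 to 0.21, PCDHGB4 from -0.24 to 0.29 and PCDHGC3 from -0.59 to 0.57. The counts of members with all remaining cadmium libraries above all remaining controls were recomputed without each library, a check added after seeing the data. They ran from 9 to 12 in PCDHA, were 10 in PCDHB and ran from 16 to 17 in PCDHG. With fewer libraries this criterion is easier to meet. Of all genes with a read 31.7% met it against control 3 alone and 35.5% against control 2 alone, but 17.8% against both. Nothing is read from the larger counts. No paired analysis was possible because 2 and 3, the numbers in the names of the control columns, differ from the labels' numbers 1 and 2.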
